A study of Rattus norvegicus with 8 samples.

Results

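The genes described here encode extracellular matrix proteins and the proteases that cut them, measured in H9C2 cells, a rat line of heart-derived myoblasts. They were chosen by name: collagen chains, laminins, matrix metalloproteinases (Mmp), tissue inhibitors of metalloproteinases (Timp), proteases of the Adamts family with their non-catalytic relatives (Adamtsl), and 14 further matrix genes such as Fn1, Eln and Lox. Of 32258 features in the deposited table, 117 had such a name, and the 75 that reached 10 exon reads in 2 libraries are the matrix genes counted below. The cells carried for 2 days a pDC316 vector with 1 of 4 inserts: YFP alone (YFP), YFP fused to wild-type PPARα (WT), the same fusion with the phospho-resistant mutation S280A, or with the phospho-mimicking mutation S280D. All 4 groups therefore carried vector and YFP, none was untransduced, and each held 2 libraries of poly(A) RNA. The labels do not state whether the libraries of a group are separate cultures, and each p-value reflects only how far these samples spread, which may be technical.

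Matrix proteins are secreted and assembled outside the cell. Fibrillar collagens form the load-bearing fibres, type IV collagen and laminins form basement membranes, and elastin on a fibrillin scaffold gives elastic recoil, with lysyl oxidases cross-linking both collagen and elastin. Mmp and Adamts proteases cut these proteins, Timp proteins block the proteases, and in the heart this balance sets how much fibrous tissue is laid down. PPARα is a nuclear receptor best known for activating genes of fatty acid use.

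Exon reads totalled between 14018785 and 39526013 per library, and 12407 genes passed the filter on low counts. Ppara stood at 74.4 and 59.5 CPM (read counts scaled to library size) in the YFP libraries. It was at 12382 and 24134 CPM with WT, 17400 and 13736 CPM with S280A, and 17911 and 17693 CPM with S280D. On the first principal component of all genes, which held 56.4% of the variance, the YFP and S280A libraries scored between -51 and -16.4 and the WT and S280D libraries between 20.7 and 47.5. Sequencing lanes were unequally spread: lane 1 held YFP, lane 2 held WT, and each mutant had 1 library in either lane. The defining cardiomyocyte marker Nkx2-5 was at 0 in 7 libraries, and the summed CPM of 5 cardiomyocyte markers lay between 1.29 and 3.81. The sums were 7.4 to 15.9 for 6 skeletal myoblast markers (mostly Cdh15), 144.1 to 233.5 for 5 fibroblast markers (mostly Thy1, with Tcf21 at 0), 0.421 to 1.35 for 3 endothelial markers and 0 to 1.85 for 5 leukocyte markers. The sum for 4 smooth muscle markers, mostly Acta2, was 12342 to 17411 in YFP and S280A and 8761 to 10327 in WT and S280D. Of these markers the low transcript Myh11 went against the sum, at 3.46 to 4.56 in YFP and S280A and 5.07 to 5.75 in WT and S280D. The skeletal myoblast sum split as the smooth muscle sum did, at 10.9 to 15.9 in YFP and S280A and 7.4 to 10.7 in WT and S280D. The cardiomyocyte sum (1.29 to 2.04 and 2.7 to 3.81, its largest part Ryr2) and the endothelial sum (0.421 to 1.13 and 1.25 to 1.35, mostly Tek) split the other way, at low levels. The cardiomyocyte markers Myh6 and Nppa did not split so. These 4 sums move with the matrix results below, and their part in them was not tested.

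Matrix transcripts made up a large share of the RNA of these cells. Of all exon reads, the 75 genes held 13.5% and 15% in the YFP libraries, 13.3% and 13.5% with S280A, 11.4% and 12.1% with WT, and 11.9% and 12.5% with S280D. Both WT and both S280D libraries were below all YFP and S280A libraries. In bulk RNA, fewer cells of a type and less RNA per cell cannot be told apart. Fibrillar collagens followed the same order, with 5.9% and 7.08% for YFP, 5.62% and 5.97% for S280A, 4.26% and 4.74% for WT, and 4.88% and 5.26% for S280D. Per kb of exon, the highest mean levels over all libraries were those of the type I collagen chains Col1a1 (4572 CPM per kb) and Col1a2 (4518), the collagen-binding glycoprotein Sparc (4334), fibronectin Fn1 (4126), the small proteoglycan biglycan Bgn (2755), elastin Eln (2275) and Col3a1 (1085). Only 0.499% of the Col1a2 reads, which also enter the fibrillar share, were unique to the gene. In the other classes the highest were Timp2 (509), Col4a1 (172.7), the basement membrane laminin chain Lamb1 (159.5), Adamts8 (136.6), the membrane-bound collagenase Mmp14 (130.8), Adamtsl3 (36.8), Col12a1 (23.3) and Col6a2 (17.8). Of the 22 Mmp names in the table only 10 reached the read minimum, and the collagenases Mmp1 and Mmp13, the stromelysin Mmp3 and the gelatinase Mmp9 did not. At the edge of the rule, Col24a1, Mmp17 and Col7a1 reached 10 reads in exactly 2 libraries with at most 15 reads in any, and were not tested. Just outside it, Col4a4 had 23 reads in 1 library and fewer than 10 in the others.

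**Figure D1:**
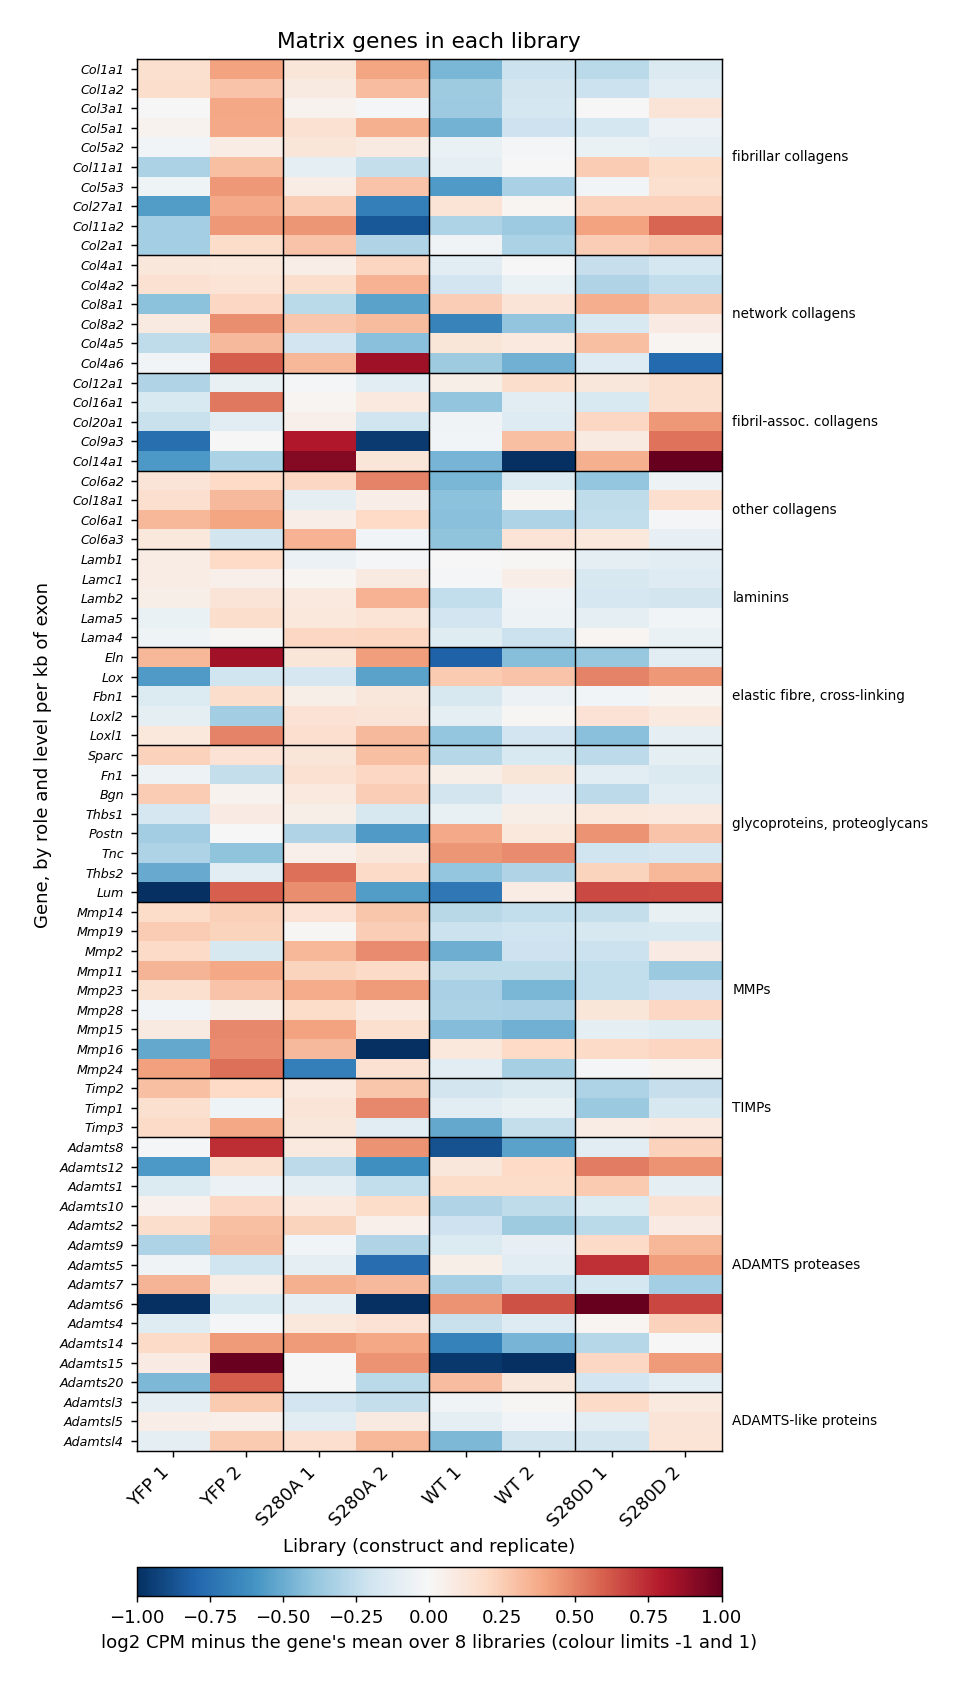
Level of 71 of the 72 tested matrix genes in each library, as log2 CPM minus the mean of that gene over the 8 libraries (red higher, blue lower, colours end at -1 and 1), with genes grouped by role and ordered by level per kb. Col1a1, Col5a1, Mmp11, Mmp14, Mmp15, Mmp19, Mmp23 and Timp2 are redder in all YFP and S280A columns than in the WT and S280D columns, while Lox, Postn and Adamts6 show the opposite.

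All 6 pairs of groups were compared with edgeR's quasi-likelihood test, and a gene was called when its Benjamini-Hochberg adjusted p over all 12407 genes was under 0.05. In WT against YFP 25 of the 72 tested matrix genes were called (34.7%, beside 19.6% of all genes), 2 higher and 23 lower. S280A against WT called 29 (40.3%, beside 26%), 25 higher and 4 lower. S280D against YFP called 18 (25%, beside 30.7%), 7 higher and 11 lower, and S280D against S280A called 22 (30.6%, beside 39.3%), 7 higher and 15 lower. In these last comparisons the share of matrix genes called was below that of all genes. No matrix gene was called in S280A against YFP or in S280D against WT, where 0.0403% of all genes were called in each, higher in S280A against YFP (0% lower) and lower in S280D against WT (0% higher). Comparisons that use the same libraries are not independent of each other. Groups of 2 libraries often do not overlap. In WT against YFP 32% of all genes had both WT libraries above both YFP libraries, and 32.3% below. These shares were 33.9% and 35.7% in S280D against YFP, 34.6% and 35.2% in S280A against WT, and 36.6% and 37.7% in S280D against S280A. They were 17.9% and 19.9% in S280A against YFP and 19.4% and 21.2% in S280D against WT.

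**Figure D2:**
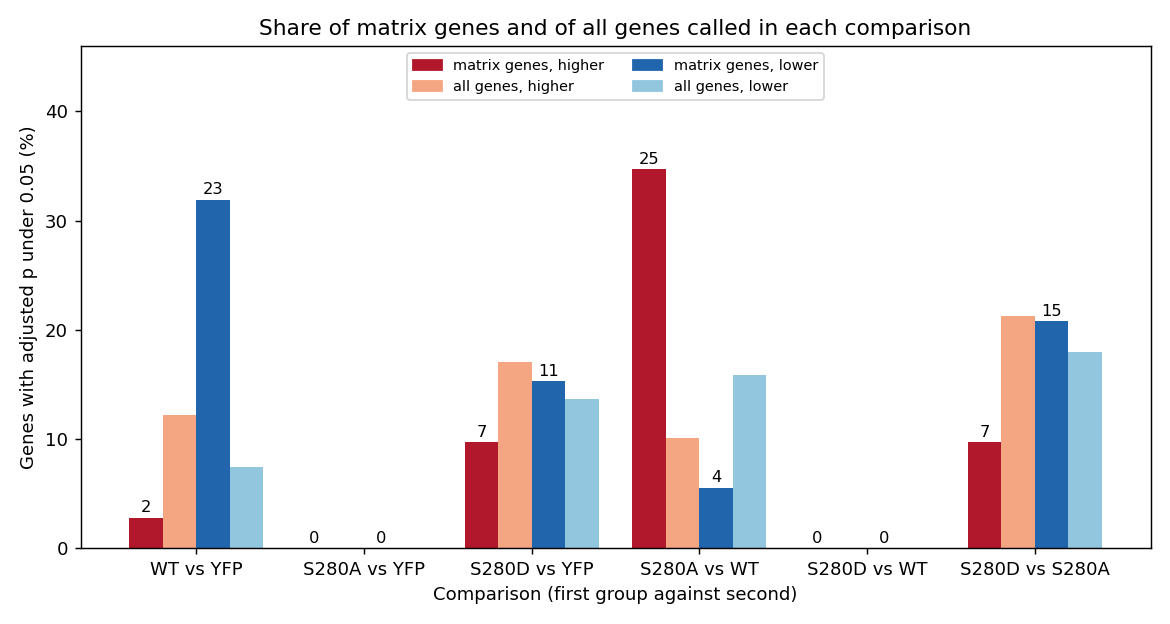
Percent of the 72 tested matrix genes (dark bars) and of all 12407 tested genes (pale bars) with an adjusted p under 0.05 in each comparison, higher in red and lower in blue, with the number of matrix genes above each dark bar. Lower calls in WT against YFP took 31.9% of matrix genes and 7.45% of all genes, and higher calls in S280A against WT 34.7% and 10.1%.

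With wild-type PPARα, transcripts for collagen fibres, elastin and several of the proteases and inhibitors that act on them were less abundant than with YFP alone, while Tnc and Lox were more abundant. The 72 genes had a median log2 difference of -0.25 between WT and YFP, beside -0.01 for all genes, and 19 of them had a positive value, beside 49.2% of all genes. Lower calls took 31.9% of the matrix genes and 7.45% of all genes, and higher calls 2.78% and 12.2%. Called lower were 5 of 10 tested fibrillar collagens, 5 of 9 Mmp genes, 6 of 13 Adamts genes, 2 of 3 Timp genes and 2 of 5 genes of elastic fibres and cross-linking. The 5 fibrillar collagens include Col1a2, described below as uncertain. None of 6 laminins, 5 fibril-associated collagens or 3 Adamtsl genes was called.

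Col1a1, the main chain of type I collagen (chromosome 10, 82745800 to 82762789 in Rnor_6.0), stood at 29162 and 34547 CPM in YFP and at 18968 and 22491 CPM in WT. Both WT libraries were below both YFP libraries, a log2 difference of -0.62 ± 0.15 (SE; edgeR adjusted p = 0.0199). Elastin, Eln (chromosome 12, 24978482 to 25021863), was at 9661 and 13768 CPM in YFP and at 4404 and 5726 CPM in WT. The groups did not overlap, and the log2 difference was -1.21 ± 0.2 (adjusted p = 0.00486). Among the network-forming collagens the short-chain collagen Col8a2 went from 194.3 and 251.9 CPM in YFP to 114.7 and 138.3 CPM in WT (log2 -0.82 ± 0.15, adjusted p = 0.00701). The other called collagens were Col1a2, Col3a1, Col5a1, Col5a3 and Col6a1, with log2 differences of -0.47 to -0.73. Col1a2 is uncertain, because only 0.499% of its exon reads were unique to the gene. On unique reads alone, 1091 to 4300 per library, the Col1a2 difference turned to 0.39 and was not called (adjusted p = 0.112).

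The proteases that fell act on different substrates. Adamts8 and Adamts15, which cleave large proteoglycans, had the largest decreases of their family. Adamts8 was at 388.9 and 652.5 CPM in YFP and 213.7 and 270.5 CPM in WT (log2 -1.11 ± 0.23, adjusted p = 0.0103). Adamts15 was a low transcript, at 2.17 and 4.14 CPM in YFP and 1 and 0.834 CPM in WT (log2 -1.78 ± 0.41, adjusted p = 0.0162). For both genes YFP replicate 2 was well above YFP replicate 1, and WT was below both. Adamts2 and Adamts14, which trim the amino-terminal propeptide from fibrillar procollagens, fell by 0.52 and 0.91 on the log2 scale. Mmp14, which activates Mmp2 at the cell surface, went from 356.9 and 371.6 CPM in YFP to 259.6 and 265.4 CPM in WT (log2 -0.47 ± 0.11, adjusted p = 0.018). Mmp11, Mmp15, Mmp19 and Mmp23 were called as well, with log2 differences of -0.44 to -0.77. The inhibitor Timp2 was at 1028 and 956.3 CPM in YFP and 735.2 and 754.7 CPM in WT (log2 -0.41 ± 0.11, adjusted p = 0.0296). Timp3, which lies within Syn3, fell by 0.67, and 40.6% of its reads were unique. Also called lower were Loxl1, which cross-links elastin (log2 -0.6), Sparc (-0.41), Adamts7 (-0.5) and Adamts10 (-0.4).

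Tenascin-C and lysyl oxidase rose. Tnc, a glycoprotein of remodelling tissue (chromosome 5, 79789670 to 79874671), was at 36.4 and 34 CPM in YFP and at 61 and 62.5 CPM in WT, with libraries of each group close together. Its log2 difference of 0.81 ± 0.12 had the smallest adjusted p of the matrix genes (0.00341). Lox was at 713.3 and 919.6 CPM in YFP and 1264 and 1291 CPM in WT (log2 0.65 ± 0.15, adjusted p = 0.0167). Both WT libraries were above both YFP libraries for either gene.

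Among these 4 libraries, lane and construct cannot be told apart. A fit of all 8 libraries with lane as a covariate called 0 matrix genes and 9 genes in all, with Eln at -1.2, Col1a1 at -0.54 and Tnc at 0.83, none of them called. Most of the 25 calls were lost when either WT library was left out, and some when either YFP or either S280D library was. Fewer of all genes were called in each of these fits as well.

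**Figure D3:**
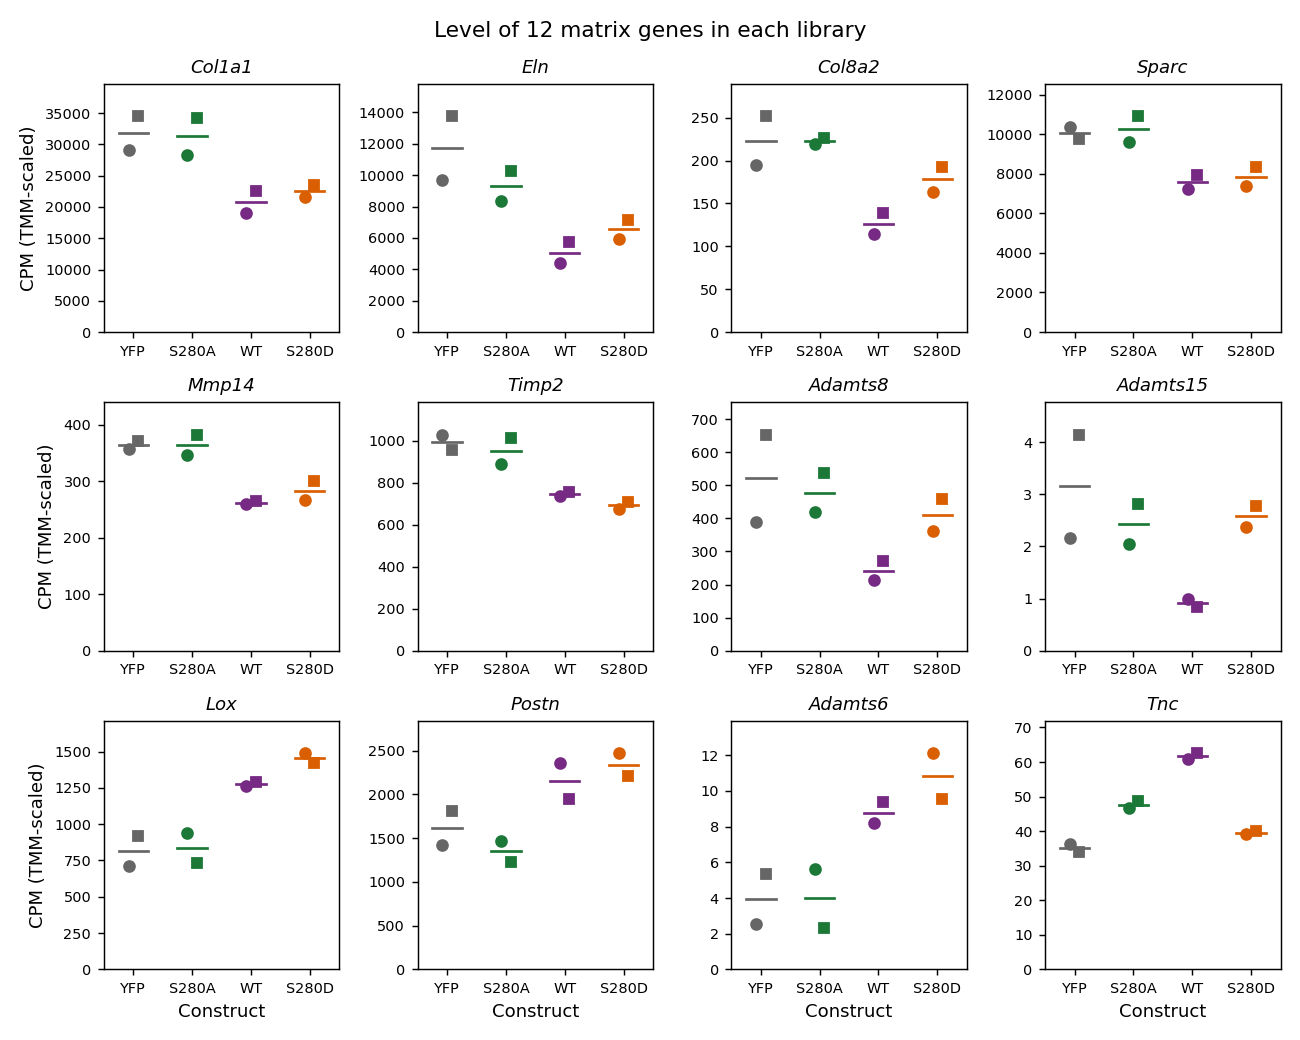
TMM-scaled CPM of 12 matrix genes in each library by construct, on linear axes that start at 0 (circles replicate 1, squares replicate 2, lines group means). For Col1a1, Sparc, Mmp14 and Timp2 the WT and S280D points lie below the YFP and S280A points, for Lox, Postn and Adamts6 they lie above, and for Tnc WT alone is highest with 61 and 62.5 CPM.

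The S280A receptor left no matrix gene called against YFP. By edgeR 6 of 72 genes had an unadjusted p under 0.05, beside 11.6% of all genes. DESeq2 also called 0, beside 0.806% of all genes. The median log2 difference was 0, with 36 genes positive and 36 negative, beside 47.2% positive among all genes. Col1a1 was at 28394 and 34232 CPM in S280A, and its log2 difference from YFP was -0.02 ± 0.15. Eln was at 8376 and 10278 CPM (-0.33 ± 0.19) and Lox at 941.3 and 729.2 CPM (0.03 ± 0.15), and for all 3 genes the S280A and YFP libraries overlapped. The 6 genes with a small unadjusted p were Tnc (0.44 ± 0.12), the thrombospondin Thbs2 (0.68 ± 0.19), the cross-linking enzyme Loxl2 (0.35 ± 0.12), Fn1 (0.32 ± 0.13), the gelatinase Mmp2 (0.38 ± 0.16) and Adamtsl3 (-0.31 ± 0.13), with edgeR adjusted p of 0.291 to 0.411.

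Compared with WT, cells with the S280A receptor had higher levels of elastin and of 4 of 10 tested fibrillar collagens, 5 of 9 Mmp genes and 5 of 13 Adamts genes, and lower levels of Postn, Lox, Col8a1 and Tnc. The 4 fibrillar collagens include Col1a2, of whose exon reads only 0.499% were unique. No fibrillar collagen, Mmp or Adamts gene was called lower, with Adamts6 at -1.12 and Adamts12 at -0.58 not called. Higher calls took 34.7% of the matrix genes and 10.1% of all genes, lower calls 5.56% and 15.9%, and the median log2 difference was 0.31 beside 0.01. Col1a1 was higher by 0.6 ± 0.15 (edgeR adjusted p = 0.0191), Eln by 0.88 ± 0.2 (0.0123), Col8a2 by 0.82 ± 0.15 (0.00823) and Adamts8 by 0.98 ± 0.23 (0.014), with no overlap of libraries. Adamts14, Adamts15, Mmp15 and Mmp23 differed by 1, 1.39, 0.76 and 0.8. Mmp2 stood at 67.1 and 73.8 CPM in S280A against 37.9 and 46.2 CPM in WT. All S280A values of Mmp2 were above the WT values (log2 0.74 ± 0.16, adjusted p = 0.0122). Other higher calls among the 12 largest were Thbs2 (0.73), Col6a2 (0.65), Adamts7 (0.63) and Col5a3 (0.63). The laminin chains Lama4 and Lamb2 were called with smaller differences, 0.38 and 0.37. Periostin, Postn, a matricellular protein of healing and fibrotic tissue, was at 1474 and 1225 CPM in S280A and 2354 and 1948 CPM in WT (log2 -0.67 ± 0.16, adjusted p = 0.0141). Lox differed by -0.61 ± 0.15 (adjusted p = 0.017), the network collagen Col8a1 by -0.58 ± 0.18 (0.0355) and Tnc by -0.38 ± 0.12 (0.0375). Within lane 2, which held both WT libraries and 1 S280A library, Eln differed by 0.74 and Postn by -0.54, from libraries that also entered the calls. The exon length offset described below gave 35 higher and 1 lower, without Lox, Col8a1 and Tnc. With it 29.9% of all genes were called, and the median log2 difference of all genes was 0.1 in place of 0.01. With lane as a covariate 3 stayed called, beside 8% of all genes. The calls were lost when WT replicate 1 or S280A replicate 2 was left out. Many were lost without WT replicate 2 and some without S280D replicate 1. Fewer of all genes were called in each of these fits as well.

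With the S280D receptor, type I collagen, elastin and Timp2 were lower than with YFP, and several Adamts proteases, Lox and Postn were higher. Higher calls took 9.72% of the matrix genes and 17.1% of all genes, and lower calls 15.3% and 13.7%. Adamts6, a close relative of the fibrillin-binding Adamts10, was at 2.52 and 5.36 CPM in YFP and 12.1 and 9.56 CPM in S280D (log2 1.45 ± 0.37, edgeR adjusted p = 0.0144). Lox was at 1487 and 1424 CPM in S280D, above both YFP libraries (0.83 ± 0.15, adjusted p = 0.00357). The aggrecanase Adamts5 (0.71), Adamts12 (0.64), Thbs2 (0.57), Postn (0.53) and the fibril-associated collagen Col20a1 (0.49) were called higher too. Eln, at 5928 and 7164 CPM in S280D, had the largest decrease (-0.84 ± 0.2, adjusted p = 0.00978), and Col1a1, at 21677 and 23559 CPM, differed by -0.49 ± 0.15 (0.0319). Mmp11 (-0.67), Loxl1 (-0.56), Timp2 (-0.52), Col6a1 (-0.5), Adamts7 (-0.47), Col4a2 (-0.42), Mmp19 (-0.39), Mmp14 (-0.36) and Col1a2 (-0.39) were called lower. On unique reads Col1a2 turned to 0.7 (adjusted p = 0.0078).

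Within lane 1, where both YFP libraries and 1 S280D library were read, Lox differed by 0.88 and Eln by -0.96, again from libraries that entered the calls. With lane as a covariate Lox, Eln and Mmp11 stayed called and no other matrix gene was, beside 13.3% of all genes. Across genes, the S280D difference from YFP rose with exon length (Spearman's rho 0.238 over all genes, 0.202 over matrix genes). This was not particular to S280D against YFP. The values were 0.186 and 0.199 in WT against YFP, -0.206 and -0.216 in S280A against WT, and 0.24 and 0.161 in S280D against S280A. They were 0.184 and -0.066 in S280D against WT and -0.0544 and 0.0181 in S280A against YFP. Matrix genes are long, with a median exon length of 4652 bases beside 2314. With an offset that removes the trend with length, the split in S280D against YFP was 2 higher and 31 lower in place of 7 and 11 (9 and 9 with RLE size factors). Of all genes, 35.2% were called with the offset and 30% with RLE size factors, beside 30.7% in the main fit. Postn, Thbs2, Adamts5, Adamts12 and Col20a1 were no longer called. With that offset the median log2 difference of all genes was -0.13 in place of -0.02 in this comparison, and -0.13 in place of -0.01 in S280D against S280A. It was -0.09 in place of -0.01 in WT against YFP. Most of the 18 calls were lost when either S280D library or YFP replicate 1 was left out, and some when either WT library was. Fewer of all genes were called in each of these fits as well.

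S280D and S280A were the pair with libraries in both lanes. Higher calls took 9.72% of the matrix genes and 21.3% of all genes, and lower calls 20.8% and 18%. Higher in S280D were Adamts6 (log2 1.44 ± 0.38, edgeR adjusted p = 0.0135), Adamts5 (0.98 ± 0.22), Adamts12 (0.9 ± 0.2), Lox (0.8 ± 0.15), Postn (0.8 ± 0.16), Col8a1 (0.71 ± 0.18) and Adamtsl3 (0.36 ± 0.13). Postn stood at 2469 and 2213 CPM in S280D against 1474 and 1225 CPM in S280A, and both S280D libraries were the higher ones (adjusted p = 0.00398). Among the called genes the largest decreases were those of Mmp23, Adamts7, Timp1, Col6a2, Col4a2, Mmp11, Loxl1 and Col1a1, with log2 differences of -0.64 to -0.47. Mmp2, Timp2, Lamb2 and Sparc followed at -0.46 to -0.39, and Mmp14, Bgn and Col4a1 were called as well. Mmp23 was at 7.54 and 7.74 CPM in S280D and 11.7 and 12.1 CPM in S280A (-0.64 ± 0.17, adjusted p = 0.0158). Timp2 was at 675.3 and 710.3 CPM in S280D and 890.9 and 1012 CPM in S280A (-0.46 ± 0.11, adjusted p = 0.0106). Groups did not overlap for either gene. Timp1 lies within Syn1, and 28% of its reads were unique.

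The difference between S280D and S280A can be taken once in each lane, from libraries that the other lane does not share. All 22 called genes had the same direction in both lanes, a choice that used these same libraries. Lox differed by 1.03 in lane 1 and 0.6 in lane 2, Postn by 1.01 and 0.59, and Col4a2 by -0.65 and -0.42. Over all 72 genes 54 had the same sign in both lanes (75%, beside 80.2% of all genes), 34 lower and 20 higher. Across genes, which are not independent replicates, the lane differences had a Pearson correlation of 0.659 for the 72 matrix genes and 0.64 for all genes. With the exon length offset the split was 5 higher and 38 lower, beside 43% of all genes called in either direction. Adamts12 and Adamtsl3 were no longer called. Most of the 22 calls were lost when S280A replicate 2 or S280D replicate 1 was left out, and some when S280D replicate 2 was. Fewer of all genes were called in each of these fits as well.

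**Figure D4:**
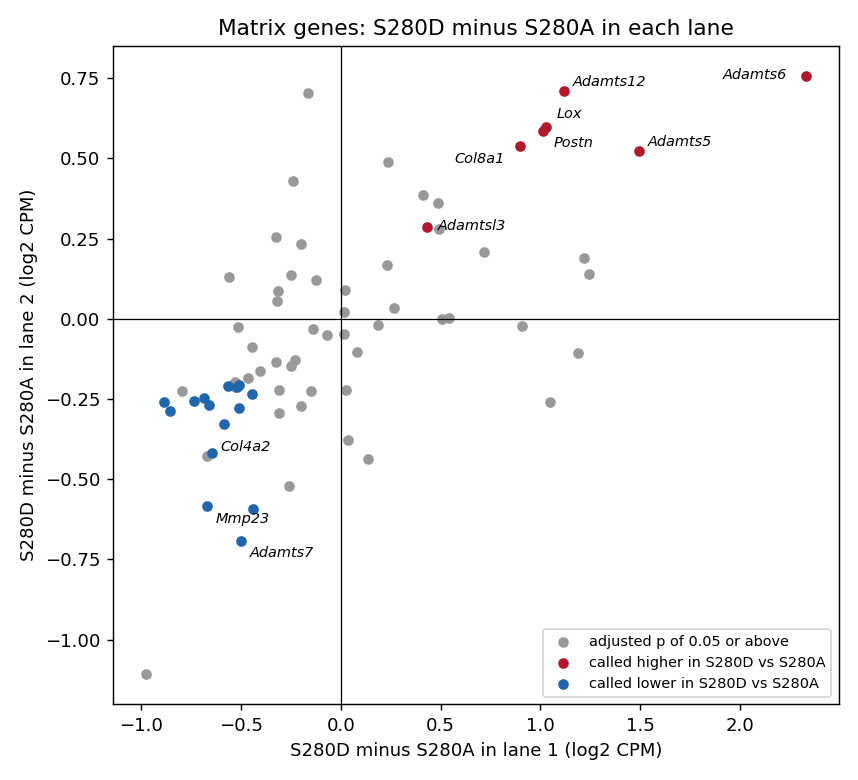
S280D minus S280A in lane 1 (horizontal) and lane 2 (vertical) as log2 CPM for the 72 tested matrix genes, 1 library per construct in each lane, with genes called in the test of all libraries in red and blue. The called genes lie in the upper right and lower left corners, which follows from calling them on these libraries, and 54 of the 72 genes have the same sign in both lanes.

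No matrix gene was called between S280D and WT. By edgeR 12 of 72 had an unadjusted p under 0.05 (11 higher, 1 lower), beside 4.88% of all genes (2.21% higher, 2.68% lower), and 58 of 72 differences were positive, beside 50.8% of all genes. DESeq2 called 1 (beside 0.322% of all genes), and edgeR called 5 when low counts were not filtered (beside 0.637%). The median log2 difference was 0.15, beside 0. Tnc had the smallest p: it stood at 39.2 and 40 CPM in S280D, below both S280A libraries (46.6 and 48.6) and both WT libraries. The log2 difference of S280D from WT was -0.64 ± 0.12, with an edgeR adjusted p of 0.151. Adamts15, at 2.37 and 2.78 CPM in S280D, was above WT by 1.47 ± 0.41 (adjusted p = 0.569) and Adamts8, at 363.1 and 459.2 CPM, by 0.76 ± 0.23 (0.672). For both genes the S280D libraries lay within the range of the YFP libraries or overlapped it. Col8a2 (0.5 ± 0.15), Thbs2 (0.62 ± 0.19) and the low transcript Col14a1 (2.05 ± 0.64) had S280D libraries above both WT libraries and were not called. For Col1a1 the difference was 0.13 ± 0.15 and for Lox 0.19 ± 0.15. A difference that misses the threshold does not show that the constructs act alike.

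**Figure D5:**
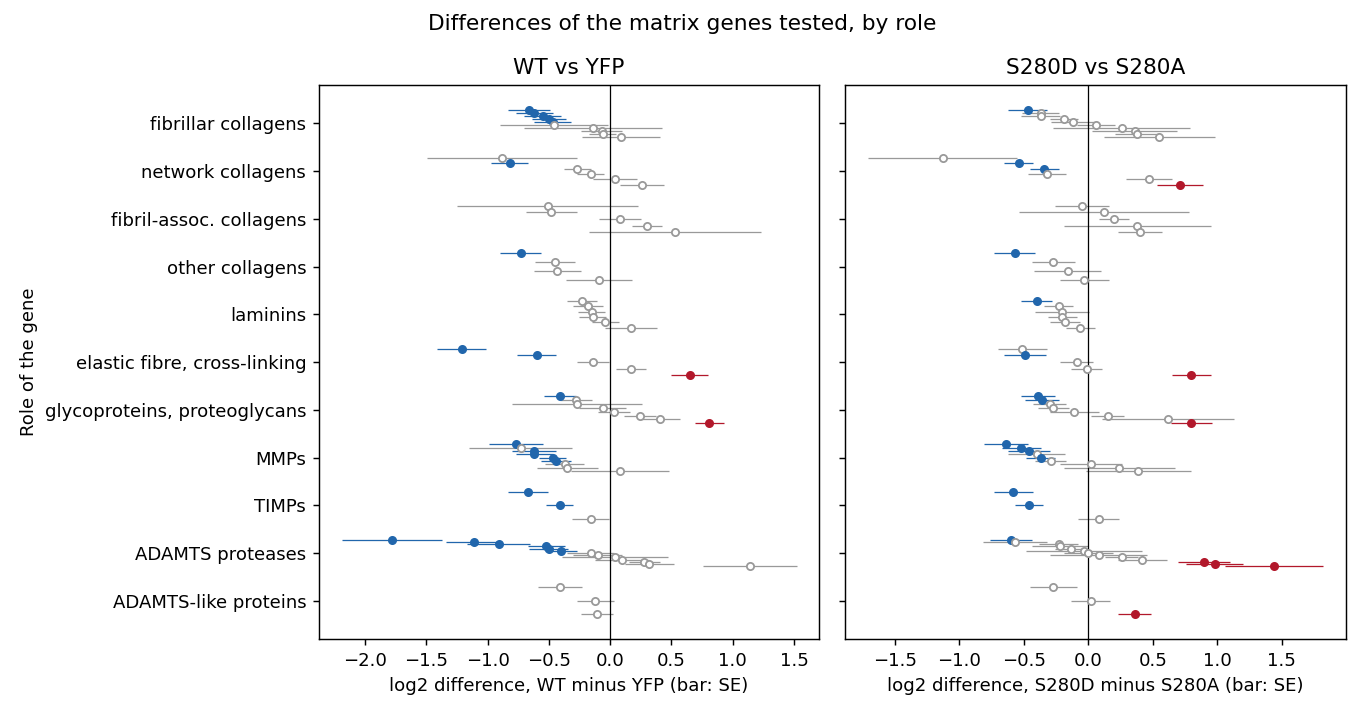
Log2 difference of each tested matrix gene by role in WT minus YFP (left) and S280D minus S280A (right), with the SE as a bar, and genes called higher in red, called lower in blue and others open. On the left 23 filled points are blue and 2 red, and on the right 15 are blue and 7 red, 3 of the red ones Adamts proteases.

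Of the basement membrane genes, neither the 6 tested laminins nor the type IV collagen chains Col4a1 and Col4a2 (-0.16 and -0.27) were called in WT against YFP. In S280D against S280A, Col4a1 and Col4a2 (-0.34 ± 0.11 and -0.54 ± 0.11) and the laminin chain Lamb2 (-0.4 ± 0.12) were called lower. Roles were not tested against each other. Fibronectin differed by 0.24 ± 0.13 in WT against YFP with all Fn1 libraries between 29164 and 39818 CPM. The fibrillin Fbn1 stayed within -0.14 and 0.2 in all 6 comparisons. Col12a1, the most abundant fibril-associated collagen, was above YFP by 0.3 ± 0.12 in WT and 0.32 ± 0.12 in S280D without being called. Among the proteases, all called Mmp genes were lower in WT and S280D than in YFP or S280A, whereas called Adamts genes went both ways in the S280D comparisons.

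The type IV collagen genes Col4a1 and Col4a2 are transcribed away from each other, and in RefSeq (GRCr8) their start sites are 77 bases apart. Both genes were called in S280D against S280A. Only Col4a2 was called in S280A against WT (0.39, beside 0.19 for Col4a1) and in S280D against YFP (-0.42 beside -0.31). The stretch between the start sites, shown because these genes adjoin, holds 78.9% G or C. It is chr16:84885521-84885596 in GRCr8, on the strand of Col4a1:
Col4a1 and Col4a2: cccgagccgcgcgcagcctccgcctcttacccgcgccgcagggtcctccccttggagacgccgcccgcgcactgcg

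RefSeq promoters, from 250 bases before to 50 after the start site in GRCr8, were matched by symbol for 52 of the 75 genes. They were searched on both strands for the TATA box TATAAA, the AP-1 site TGANTCA and a direct repeat of AGGNCA with 1 base between, the kind that PPAR binds with its partner RXR. The letters of the TATA box, at any position and on either strand, were present in 7 (13.5%, beside 14.2% of all 33469 promoters). Those of the AP-1 site were present in 1 (1.92%, beside 7.33%) and those of the direct repeat in 0 (beside 0.415%). The 250 bases before the start are shown for Postn and Tnc, which moved against most matrix genes in S280A against WT, and for Col6a1, which holds the AP-1 letters. Lox and Col8a1 moved as Postn and Tnc did and are not shown. Lox had no promoter matched by symbol, and the Col8a1 promoter held no match. Capitals mark the matched letters, and a match is a description of the sequence only. In Postn the TATAAA letters end 38 bases before the start, in Tnc they end 202 bases before it, and in Col6a1 the AP-1 letters end 92 bases before it. Their positions are chr2:140677811-140678060 (plus strand) for Postn, chr5:82476132-82476381 (minus strand) for Tnc and chr20:11905440-11905689 (plus strand) for Col6a1.
Postn: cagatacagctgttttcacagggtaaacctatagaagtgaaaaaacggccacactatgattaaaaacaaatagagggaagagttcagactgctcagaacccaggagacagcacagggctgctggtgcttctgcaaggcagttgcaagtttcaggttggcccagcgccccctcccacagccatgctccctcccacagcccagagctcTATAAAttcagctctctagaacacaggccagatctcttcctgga
Tnc: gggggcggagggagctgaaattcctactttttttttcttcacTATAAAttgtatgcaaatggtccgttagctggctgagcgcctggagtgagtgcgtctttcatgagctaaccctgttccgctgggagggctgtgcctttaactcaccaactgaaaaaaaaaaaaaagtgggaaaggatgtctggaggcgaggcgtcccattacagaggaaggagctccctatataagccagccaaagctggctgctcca
Col6a1: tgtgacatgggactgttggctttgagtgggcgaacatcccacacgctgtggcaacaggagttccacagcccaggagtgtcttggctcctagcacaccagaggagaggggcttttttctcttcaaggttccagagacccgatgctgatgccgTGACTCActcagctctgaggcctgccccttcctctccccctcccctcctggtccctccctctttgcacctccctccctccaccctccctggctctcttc

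Intron reads, which come mostly from unspliced transcripts, were fitted in the same way as a second readout from the same libraries. Of the matrix genes 61 had enough intron reads. Signs on exon and intron reads were compared for these genes only, so no share over all genes stands beside the counts. In WT against YFP 18 of 20 genes called on exon reads had the same sign on intron reads, in S280D against YFP 13 of 15, in S280A against WT 21 of 24 and in S280D against S280A 16 of 20. Few passed the intron test itself, which called 2.02% of 12988 genes in WT against YFP, 5.35% in S280D against YFP, 0.0077% in S280A against WT and 4.54% in S280D against S280A. Col1a1 (log2 -0.95 ± 0.23, edgeR adjusted p = 0.0463) and Eln (-1.18 ± 0.26, adjusted p = 0.0343) were called lower in WT against YFP. Col1a1 (-0.95 ± 0.23) and Col4a2 (-0.82 ± 0.22) were called lower in S280D against YFP (adjusted p = 0.0301 and 0.0423). The intron reads of Col6a2 were called lower in WT against YFP (-1.82 ± 0.41, edgeR adjusted p = 0.0379) and in S280D against YFP (-1.77 ± 0.38, adjusted p = 0.0219), where its exon differences of -0.45 and -0.38 were not called. Postn was higher in S280D against S280A (0.96 ± 0.24, adjusted p = 0.0403). Lox, called on exon reads in 4 comparisons, had intron differences of 0.04 ± 0.21 in WT against YFP, 0.06 ± 0.21 in S280D against YFP, -0.31 ± 0.21 in S280A against WT and 0.33 ± 0.21 in S280D against S280A, none of them called. Exon and intron differences of Lox were not tested against each other. Introns held 10.99% and 11.9% of gene reads with YFP and 14.23% to 15.85% with a receptor, and the part of that gap in these values was not tested.

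Other genes that make or bind the matrix were taken from lists of 22 collagen processing genes, 28 receptors, 39 further components, 17 TGF-beta signalling genes and 16 protease control genes. Beside the counts below, 12.2% of all genes were higher and 7.45% lower in WT against YFP, 17.1% and 13.7% in S280D against YFP, 10.1% and 15.9% in S280A against WT, and 21.3% and 18% in S280D against S280A. Of 19 tested collagen processing genes, 0 were higher and 9 lower in WT against YFP, 0 and 10 in S280D against YFP, 12 and 0 in S280A against WT, and 1 and 13 in S280D against S280A. Serpinh1, the collagen chaperone of the endoplasmic reticulum, was measured at 5125 and 5014 CPM with YFP, 4613 and 5219 CPM with S280A, 3571 and 3926 CPM with WT, and 3490 and 3632 CPM with S280D. For it and for the prolyl hydroxylases P3h1, P3h3 and P4ha2, every YFP and S280A library was above every WT and S280D library, and P3h1 was at 102.9 and 104.8 CPM in WT beside 152.8 and 157 CPM in YFP. Of 28 tested further components, 2 were higher and 6 lower in WT against YFP. The large proteoglycan versican, Vcan, was at 427.6 and 404.5 CPM in YFP and 823.3 and 813.3 CPM in WT (0.98 ± 0.13, edgeR adjusted p = 0.00336). The elastic fibre protein Emilin1 went the other way (-0.77 ± 0.14, adjusted p = 0.00704). Of 25 receptors 2 were higher and 2 lower in WT against YFP, and 3 and 8 in S280D against S280A, near the 19.6% and 39.3% of all genes called in either direction. The fibronectin receptor subunit Itga4 differed by 1.01 ± 0.19 and 1.22 ± 0.19 in these comparisons. Of 16 TGF-beta genes 3 were higher and 3 lower in WT against YFP, and 2 and 2 in S280D against S280A (beside the same 19.6% and 39.3%). The SMAD-binding repressor Skil was at 9.95 and 14.5 CPM in YFP and 25.3 and 26.2 CPM in WT. Of 14 protease control genes 3 were higher and 2 lower in WT against YFP (beside 19.6% of all genes), among them the sheddase Adam10 (0.89 ± 0.17) and the proprotein convertase Furin, at 165.5 and 148 CPM in YFP and 116.3 and 114.8 CPM in WT.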

How the data were processed

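The authors deposited 1 table of raw counts per gene and library, kept separately for all exon reads, for exon reads unique to the gene and for intron reads, without normalization, per the file headers. Strand-specific paired-end libraries were made from poly(A) RNA, per the labels' protocols. The build is Rnor_6.0, per the submitters' processing notes. Aligner, annotation and strand setting were not given in the sources used here, so reads of overlapping genes cannot be told apart. Gene coordinates are those of the table, and exon length is the table's own.

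The main test used all exon reads in edgeR 4.0.16 (R 4.3.3): filterByExpr, TMM, quasi-likelihood test over all 8 libraries with 1 coefficient per group, two-sided, Benjamini-Hochberg adjustment at 0.05. CPM are TMM-scaled. SEs are derived from the fitted log2 difference and its F statistic. Replicate numbers share only a number. The matrix genes, lists and tests were chosen with earlier results of these data known. Genes were named by a rule: up to 12 higher and 12 lower called genes per comparison, and in each role the most abundant and the one with the smallest p. Genes named beyond it were chosen after their values were seen. Alternatives were RLE size factors, no filter, 1 CPM in 2 libraries, DESeq2 1.42.0, only the 4 libraries compared, a replicate block, lane as covariate, unique exon reads, an exon length offset and leaving out each library. The scripts were tested on simulated data. 1 gene is not reported here. Without molecular identifiers, PCR copies are counted as separate reads, and low CPM rest on few reads. The authors' own test columns were not used.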

Additional observations from a re-analysis of the deposited data

How the results depend on the processing

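In WT against YFP the count of 25 called matrix genes became 0 with lane as a covariate, 38 with the exon length offset, and 1 to 27 when each library was left out in turn. In S280D against YFP 18 became 10 in a fit of only the 4 libraries compared, 3 with the lane covariate, 33 with the offset and 1 to 20 with a library left out. RLE size factors split that comparison into 9 higher and 9 lower, beside 30% of all genes called in either direction. In S280A against WT 29 became 3 with the lane covariate and 0 to 32 with a library left out, and the offset gave 35 higher and 1 lower. In S280D against WT 0 became 5 without the filter (beside 0.637% of all genes) and 1 in DESeq2 (beside 0.322%). In S280D against S280A 22 became 43 with the offset (beside 43% of all genes). In the comparisons with matrix gene calls, leaving out a library changed both the matrix gene count and the share of all genes called. Most calls were lost in some of these fits. The replicate block gave 24, 0, 16, 25, 0 and 22 calls in WT, S280A and S280D against YFP, S280A and S280D against WT, and S280D against S280A. The shares of all genes called were 17.3%, 0.0322%, 27.4%, 23%, 0.0242% and 37.2% in the same order. Deviations of same-numbered libraries correlated at -0.173 to -0.0916 between YFP and the receptor groups and at 0.118 to 0.205 among the receptor groups. With 2 numbers per group and no label saying what a number shares, the numbers were not taken to pair the samples. Of 94 calls of single genes over the 6 comparisons, 3 changed direction in any alternative: Col1a2 in WT against YFP (0.39) and in S280D against YFP (0.7) on unique reads, and Adamtsl3 in S280D against S280A (-0.11) with the offset. DESeq2 kept 88 of the 94, and the filter at 1 CPM all 94. A fit of only the 4 libraries compared kept 73, and the lane covariate only 21. Many calls were also lost when a library was left out. The cause of these changes was not tested. With 2 libraries per group, 4 residual degrees of freedom limit every test, and a group left with 1 library is assumed to vary like the others.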

Other observations

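Some matrix genes lie side by side in the genome. In the coordinates of the table (Rnor_6.0), 5 neighbouring pairs described here were within 200 kb of each other, and neighbours moved together in some pairs and not in others. Adamts15 and Adamts8 lie 18.2 kb apart on chromosome 8. Both fell in WT against YFP, by 1.78 and 1.11 on the log2 scale, and both were called higher in S280A against WT (1.39 and 0.98). Col6a1 and Col6a2 lie 97.9 kb apart on chromosome 20, and only Col6a1 was called in WT against YFP (-0.73 beside -0.45) while only Col6a2 was called in S280D against S280A (-0.57 beside -0.27). Adamts1 and Adamts5 lie 60 kb apart on chromosome 11, and Adamts5 was called higher in S280D against S280A (0.98) while Adamts1 differed by 0.26 without a call. Col3a1 and Col5a2 lie 33.3 kb apart on chromosome 9, and Col3a1 was called lower in WT against YFP (-0.47) while Col5a2 differed by -0.06. The table places Col4a2 and Col4a1 83.6 kb apart in Rnor_6.0, whereas their RefSeq start sites in GRCr8 are 77 bases apart. Differences between the members of a pair were not tested.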
